A study of Mus musculus with 6 samples.

Results

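The 35 genes described here act in G2 phase and mitosis, the steps in which a cell condenses, aligns and separates its copied chromosomes and then divides. They were taken by symbol from the deposited gene table. The list was set by function, with earlier results of these data known. All 35 were among the 55536 genes of the table, each under 1 Ensembl identifier, and all 35 were among the 17423 genes that passed the filter on low counts and were tested. RNA was sequenced from 6 tumours grown in the livers of male C3H mice that were 6 to 8 weeks old when 1000000 cells of HCA-1, a murine liver cancer line, were placed under the liver capsule. The 3 Control tumours (replicates 3, 4 and 5) came from mice labelled untreated. The 3 TSDP tumours (replicates 1, 2 and 5) came from mice given a nanoparticle that carried DNIC, a dinitrosyl iron complex that releases nitric oxide, along with sorafenib, in 6 intravenous doses from day 10 to day 23. All tumours were collected on day 24. An empty particle, DNIC alone and sorafenib alone were not analysed here, so the parts of TSDP cannot be told apart. All 6 tumours come from 1 cell line, what the Control mice were given in place of the particle is not stated in the labels, and host liver, vessels and immune cells are part of each sample.

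Mitosis is driven by the kinase CDK1 bound to a B-type cyclin. Aurora and Polo kinases build the spindle, kinetochores attach chromosomes to it, and the spindle checkpoint holds back the anaphase-promoting complex until every chromosome is attached. Most of these genes are transcribed together late in the cell cycle by a complex of MuvB proteins with B-MYB and FOXM1, and are kept silent in resting cells by the related DREAM complex. Adult hepatocytes rarely divide, while tumour cells and activated lymphocytes do, so in a liver tumour these RNAs are read as a sign of how much of the tissue is cycling. In RNA from whole tumours, fewer cycling cells and less of these RNAs per cycling cell cannot be told apart.

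Libraries held 32130808 to 38953397 counts, and the 35 genes together took 0.244% to 0.521% of them. The lowest count of any of the genes in any library was 459, so counting error was small beside the differences between tumours. One library stood apart: in Control 3, 13 hepatocyte markers took 0.0105% of counts, against 0.394% and 2.03% in the other Control tumours and 1.97% to 5.64% in TSDP. The erythroid markers summed to 649.9 CPM in Control 3 and to at most 52.6 CPM elsewhere. The epithelial keratin Krt18 was abundant in every tumour, between 507 and 725 CPM. Afp, the fetal liver protein often raised in this cancer, was low in all of them, from 3.27 to 9.20 CPM.

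The design sets treated against untreated tumours. No difference in the mitosis genes was detectable with 3 tumours a group: the summed level of the 35 genes was 5238, 3857 and 2845 CPM in Control 3, 4 and 5 and 4083, 2577 and 4269 CPM in TSDP 1, 2 and 5. The Control mean was 3980.4 CPM ± 1201 and the TSDP mean 3643 CPM ± 928 (SD, n = 3 each; CPM is counts per 1000000 after TMM scaling). The highest value was Control 3 and the lowest TSDP 2, but Control 5 lay close to TSDP 2, and the other three tumours lay between.

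By edgeR's quasi-likelihood test 0 of the 35 genes passed a Benjamini-Hochberg adjusted p of 0.05, where 0% of all 17423 tested genes passed. At an unadjusted p under 0.05 there were also 0 of the 35, against 8.6% of all tested genes higher and 4.75% lower in TSDP. limma-voom called 0 of the 35 and 0% of all genes, and DESeq2 called 0 of the 35 and 3.4% of the genes to which it gave an adjusted p. The Control and TSDP values overlapped for each of the 35, whereas for 21.8% of all tested genes the 3 TSDP values lay wholly above or below the 3 Control values. Log2 fold changes (TSDP over Control) ran from -0.44 for Cenpf to 0.15 for Aurka, with a median of -0.037, beside -0.022 for all tested genes. They were negative for 23 of the 35, against 52.7% of all tested genes. With library totals alone in place of TMM factors 31 were negative, and with upper-quartile factors 33.

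The size of change that these data leave possible differed by gene. The 95% intervals of the fold change lay within 1 log2 unit of 0, that is within a doubling or halving, for 33 of the 35. The exceptions were Cenpf, with an interval of -1.27 to 0.39, and Mki67, with -1.14 to 0.41. The narrowest intervals were those of Cenpa (-0.34 to 0.34) and Cks2 (-0.31 to 0.40). A gene that misses the threshold is thus not shown to be equal in the groups.

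**Figure D1:**
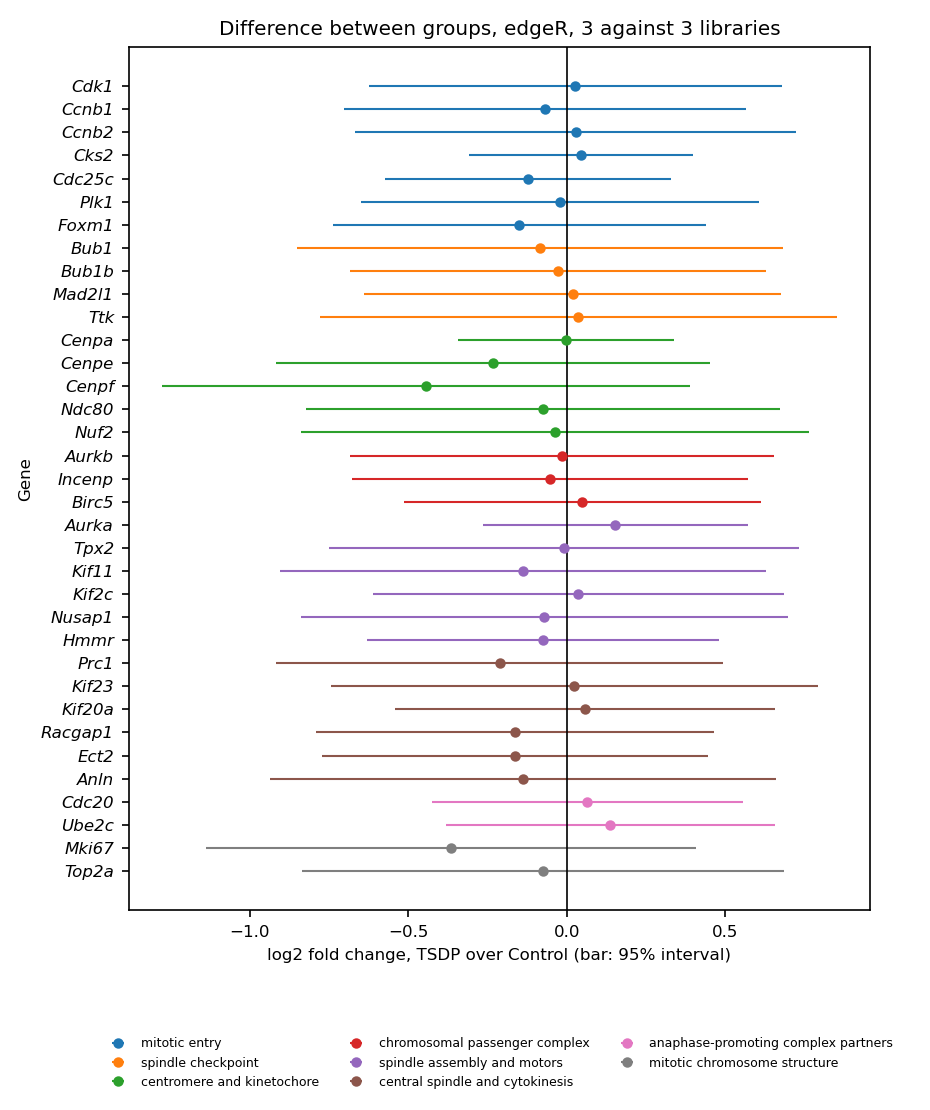
Log2 fold change of TSDP over Control for each of the 35 genes (horizontal axis, edgeR, 3 against 3 libraries), with points coloured by role and bars giving the 95% interval. Every interval crosses 0, and those of Cenpf and Mki67 reach below -1.

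The mitotic entry group holds CDK1 and its partners. Cdk1 (ENSMUSG00000019942), the kinase that starts mitosis, stood at 101, 72.2 and 56.8 CPM in Control 3, 4 and 5 and 92.1, 56.8 and 86.0 CPM in TSDP 1, 2 and 5. Control 3 was highest and Control 5 and TSDP 2 were lowest and nearly equal, so each group held both high and low tumours. Its log2 fold change was 0.028 ± 0.27 (SE, edgeR adjusted p = 0.971). Ccnb1 and Ccnb2, the B-type cyclins that switch CDK1 on, were likewise highest in Control 3. Ccnb1 stood at 95.9, 75.1 and 56.1 in the Control tumours and 85.2, 51.6 and 79.9 CPM in the TSDP tumours, with a log2 fold change of -0.068. Ccnb2 stood at 48.4, 46.6 and 25.2 in the Control tumours and 47.6, 31.0 and 44.1 CPM in the TSDP tumours, with 0.028, and here Control 5 was the lowest of all. Cks2, a small subunit that docks on CDK1, was the flattest of the 35, at 28.8, 26.2 and 26.9 in the Control tumours and 30.6, 22.9 and 30.9 CPM in the TSDP tumours. Its highest tumour exceeded its lowest by 1.35-fold, against 1.79-fold for Cdk1.

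Cdc25c, the phosphatase that removes the brake on CDK1, was the least abundant of the 35 per kilobase of exon, at 3.33 CPM per kb. It stood between 13.3 and 19.1 CPM, with a log2 fold change of -0.12. Plk1, the Polo kinase of mitotic entry and spindle building, stood at 47.4, 44.4 and 27.8 in the Control tumours and 43.8, 28.9 and 45.1 CPM in the TSDP tumours, a log2 fold change of -0.021. Foxm1, the transcription factor that drives many of the other genes, stood at 107, 88.8 and 61.7 in the Control tumours and 83.9, 59.6 and 88.4 CPM in the TSDP tumours. The 3 TSDP values of Foxm1 lay below Control 3 and Control 4, but TSDP 1 and TSDP 5 lay above Control 5, and its log2 fold change was -0.15 ± 0.24 (SE, edgeR adjusted p = 0.804). Of the 7 entry genes, 4 had negative fold changes and 3 positive ones.

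The promoters of CDK1 and its subunits are shown because Cdk1, Ccnb1 and Ccnb2 peaked in the same tumour while Cks2 varied least. That tumour, Control 3, was the highest for 29 of the 35 genes, so the shared peak is not particular to these. Each window runs from 250 bases before to 50 bases after the start given by RefSeq (GRCm38.p6). Capitals mark CCAAT, the box bound by NF-Y, and TTTGAA, a core form of the cell cycle homology element through which MuvB complexes act, on either strand (CCAAT then reads ATTGG, and TTTGAA reads TTCAAA). The windows lie at chr10:69352863-69353162 on the minus strand for Cdk1, chr9:70421505-70421804 on the minus strand for Ccnb2, chr13:100786437-100786736 on the minus strand for Ccnb1 and chr13:51644982-51645281 on the plus strand for Cks2.
Cdk1: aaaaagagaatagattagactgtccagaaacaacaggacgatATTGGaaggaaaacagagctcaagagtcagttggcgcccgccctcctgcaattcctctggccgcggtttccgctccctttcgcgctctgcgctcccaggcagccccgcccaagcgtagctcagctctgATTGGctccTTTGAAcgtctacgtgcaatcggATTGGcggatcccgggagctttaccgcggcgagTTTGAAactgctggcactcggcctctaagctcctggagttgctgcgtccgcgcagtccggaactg
Ccnb2: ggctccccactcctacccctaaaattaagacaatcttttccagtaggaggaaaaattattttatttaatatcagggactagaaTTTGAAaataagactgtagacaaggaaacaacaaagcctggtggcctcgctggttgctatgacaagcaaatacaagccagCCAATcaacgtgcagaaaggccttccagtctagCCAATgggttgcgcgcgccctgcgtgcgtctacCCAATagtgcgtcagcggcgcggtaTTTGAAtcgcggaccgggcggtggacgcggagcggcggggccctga
Ccnb1: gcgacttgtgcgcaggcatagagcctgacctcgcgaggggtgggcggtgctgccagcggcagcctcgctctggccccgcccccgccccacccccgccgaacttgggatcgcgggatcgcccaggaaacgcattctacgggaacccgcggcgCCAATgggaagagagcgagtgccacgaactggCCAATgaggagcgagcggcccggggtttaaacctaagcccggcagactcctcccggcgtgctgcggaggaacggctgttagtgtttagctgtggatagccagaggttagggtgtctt
Cks2: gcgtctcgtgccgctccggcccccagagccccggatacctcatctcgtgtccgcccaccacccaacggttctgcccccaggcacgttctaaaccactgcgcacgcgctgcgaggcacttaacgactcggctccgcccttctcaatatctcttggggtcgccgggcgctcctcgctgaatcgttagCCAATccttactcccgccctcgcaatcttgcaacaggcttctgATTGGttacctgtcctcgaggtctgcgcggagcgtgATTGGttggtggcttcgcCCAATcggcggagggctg

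With distances counted from the start as 0, the Cdk1 window holds TTTGAA at -71 and -15 and CCAAT at -208, -80 and -48. Ccnb2 holds TTTGAA at -167 and 4, with CCAAT at -87, -54 and -21. Ccnb1 holds CCAAT at -99 and -67, and Cks2 at -65, -22, 14 and 32, and neither window holds TTTGAA or its variant TTCGAA. Promoter windows were found for 29 of the 35 genes. CCAAT stood in 22 of the 29 (75.9%), against 41.1% of the 27025 genes with a window, and TTTGAA in 21 of 29 (72.4%), against 20.2%. TTCGAA stood in 3 of 29, against 1.8% of all genes. Windows with CCAAT together with either of the others numbered 19 of 29 (65.5%), against 8.61%.

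TTTGAA lay close to the start: in 19 of the 29 a copy began within 50 bases of it, against 5.72% of all genes, a distance chosen after the positions had been seen. Counting the 150 bases before the start alone, TTTGAA stood in 9 of the 29 (31%, against 10.5%) and CCAAT in 22 (75.9%, against 27.7%). The 22 genes with TTTGAA or TTCGAA had a median range of 1.94-fold between their highest and lowest tumour, and the 7 without either 1.86-fold. Other forms of the core were not searched, so a window without these letters is not shown to lack the element. These letter matches describe the sequence, and binding was not measured.

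**Figure D2:**
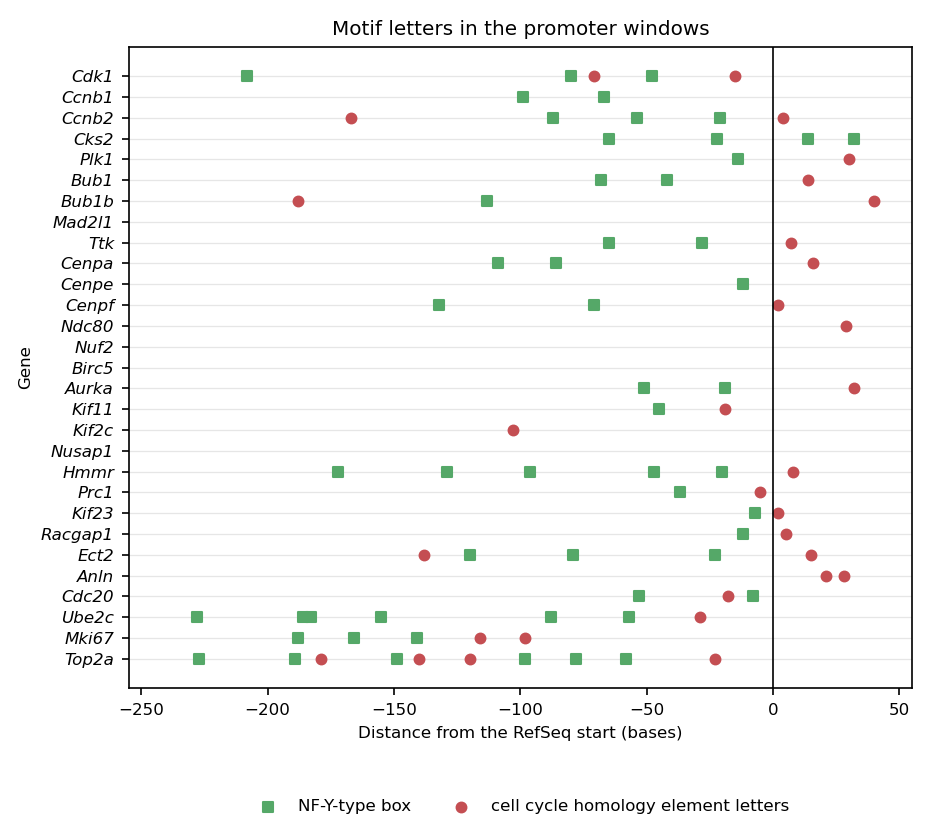
Position of each motif match relative to the RefSeq start (horizontal axis, bases; 1 window per gene) in the 29 genes with a promoter window. Squares are the NF-Y box and circles the 2 searched forms of the cell cycle homology element core, TTTGAA and TTCGAA. The circles gather around the start.

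The spindle checkpoint genes were Bub1, Bub1b, Mad2l1 and Ttk, which encode 3 kinase-like proteins and the MAD2 protein that together hold back anaphase. Bub1 stood at 133, 81.2 and 71.1 in the Control tumours and 93.9, 61.0 and 115 CPM in the TSDP tumours. Control 3 and TSDP 5 were its highest tumours, from opposite groups. Ttk, the kinase MPS1 that starts the checkpoint signal, stood at 56.3, 38.3 and 26.7 in the Control tumours and 50.4, 27.1 and 46.9 CPM in the TSDP tumours. Log2 fold changes in this group ran from -0.084 for Bub1 to 0.037 for Ttk, with Bub1b at -0.027 and Mad2l1 at 0.019.

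The 5 centromere and kinetochore genes all had negative fold changes, none past the threshold. Cenpf (ENSMUSG00000026605), a large protein of the outer kinetochore made in G2, had the smallest p of the 35. It stood at 239, 168 and 101 CPM in Control 3, 4 and 5 and 140.3, 88.2 and 145 CPM in TSDP 1, 2 and 5. TSDP 1 and TSDP 5 lay below Control 3 and Control 4 yet above Control 5, so the groups overlapped. The means were 169 ± 68.6 CPM for Control against 125 ± 31.6 CPM for TSDP (SD, n = 3 each). That is a log2 difference of -0.44 ± 0.34 (SE, unadjusted p = 0.245 and adjusted p = 0.588, edgeR). Cenpe, the kinesin that carries chromosomes to the spindle equator, stood at 202, 149 and 111 in the Control tumours and 146, 92.9 and 154 CPM in the TSDP tumours, a log2 fold change of -0.23. Ndc80 and Nuf2, which pair in the complex that grips microtubules, had -0.075 and -0.037. Cenpa, the histone variant that marks centromeres, was nearly level, at 49.2, 52.6 and 38.5 in the Control tumours and 49.9, 44.8 and 45.2 CPM in the TSDP tumours (-0.0030).

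The chromosomal passenger complex corrects faulty attachments and later guides division. Its kinase Aurkb stood at 48.7, 39.9 and 25.1 in the Control tumours and 43.4, 28.5 and 40.5 CPM in the TSDP tumours, with a log2 fold change of -0.015. Its scaffold Incenp had -0.051 and its subunit Birc5, known as survivin, 0.049. Birc5 stood at 61.9, 55.4 and 36.7 in the Control tumours and 59.5, 41.8 and 58.0 CPM in the TSDP tumours. For all 3 subunits Control 3 was the highest tumour, and the lowest was Control 5 for Aurkb and Birc5 and TSDP 2 for Incenp.

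Among the genes of spindle assembly and motors, Aurka (ENSMUSG00000027496), the Aurora kinase of the spindle poles, had the largest positive fold change of the 35. It stood at 38.7, 38.1 and 30.4 CPM in Control 3, 4 and 5 and 44.5, 31.6 and 43.2 CPM in TSDP 1, 2 and 5. TSDP 1 and TSDP 5 were above every Control tumour and TSDP 2 was below 2 of them. Its log2 fold change was 0.15 ± 0.17 (SE, edgeR adjusted p = 0.711). Tpx2, which activates Aurora A on the spindle, differed little between the group means (-0.0083) while ranging 2.11-fold between tumours, from 106 CPM in TSDP 2 to 223 CPM in Control 3. Kif11, the motor that pushes spindle poles apart, had -0.14, and Kif2c, a kinesin that shortens microtubules, 0.037. Nusap1 and Hmmr, which bind spindle microtubules, had -0.071 and -0.075.

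The central spindle and cytokinesis genes finish division. Anln, the actin-binding protein anillin of the cleavage furrow, was the third most abundant of the 35 per kilobase (46.1 CPM per kb) and stood at 588, 417 and 309 in the Control tumours and 431, 257 and 506 CPM in the TSDP tumours. Its lowest tumours were again Control 5 and TSDP 2. Prc1, which bundles the central spindle, had a log2 fold change of -0.21, and the kinesins Kif23 and Kif20a 0.025 and 0.058. Racgap1 and Ect2, which switch on RhoA at the furrow, had -0.16 and -0.16. Of Kif20a's exon bases 29.3% also lie in an exon of Cdc23, so reads there may not be assigned to it.

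Cdc20, the activator of the anaphase-promoting complex, and Ube2c, the enzyme that supplies it with ubiquitin, had positive fold changes of 0.066 and 0.14. Ube2c stood at 64.6, 63.8 and 44.1 in the Control tumours and 68.0, 48.7 and 73.1 CPM in the TSDP tumours, with TSDP 5 highest and Control 5 lowest. Of its exon bases 22.8% overlap Tnnc2. In all, 9 of the 35 share exon bases with another gene, by GENCODE M21.

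Mki67 (ENSMUSG00000031004), which encodes the Ki-67 antigen used by pathologists to score dividing cells, and Top2a, the topoisomerase that untangles chromosomes, led the 35 in level per kilobase, at 50.8 and 48.9 CPM per kb. Mki67 stood at 803, 532 and 393 CPM in Control 3, 4 and 5 and 489.7, 319 and 533 CPM in TSDP 1, 2 and 5. TSDP 5 matched Control 4 and TSDP 1 lay between Control 4 and Control 5, so the lower TSDP mean came with overlap of the groups. The means were 576 ± 209 CPM for Control against 447 ± 113 CPM for TSDP (SD, n = 3 each). That is a log2 difference of -0.36 ± 0.32 (SE, unadjusted p = 0.297 and adjusted p = 0.629, edgeR). Top2a stood at 625, 421 and 311 in the Control tumours and 495, 304 and 489 CPM in the TSDP tumours, with a log2 fold change of -0.076.

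The tumours differed from each other more than the groups did, and the 35 genes moved together. Control 3 was the highest tumour for 29 of the 35, against 26.5% of all tested genes. The lowest was TSDP 2 for 22 and Control 5 for the other 13, so these tumours took the lowest place for 35 of 35, against 41.1% of all tested genes. This pattern was noticed in the values and is given as a description. Every one of the 35 stood above its own mean in Control 3 and below it in Control 5 and TSDP 2, while 33 stood above it in TSDP 1, 34 in TSDP 5 and 25 in Control 4. The highest tumour exceeded the lowest by a median of 1.91-fold, from 1.35-fold for Cks2 to 2.71-fold for Cenpf. The same median over the 17161 tested genes with a count in every library was 1.75-fold.

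The make-up of the programme was steadier than its level. When each gene was expressed as a share of the summed level of the 35 in the same tumour, the median range was 1.27-fold, and it was narrower than the range of the level for 31 of the 35. Cenpe kept the steadiest share, 3.59% to 3.88% of the sum (1.08-fold). Cenpa varied most, from 0.939% to 1.74% (1.85-fold). Part of the narrowing follows from dividing by a sum that holds the gene itself. The shares did not overlap between the groups for 8 of the 35, higher in TSDP for Cdk1, Bub1b, Mad2l1, Kif23 and Ube2c and lower for Cenpe, Cenpf and Mki67. Divided by the same sum, 7.05% of all tested genes did not overlap, beside 21.8% on their levels. Most of those genes are no part of the sum, and the division carries its spread between tumours into them. The 8 of 35 can therefore not be judged against 7.05%. The share of Mki67 was 13.8% to 15.3% for Control and 12.0% to 12.5% for TSDP. That of Cenpf was 3.56% to 4.56% for Control and 3.40% to 3.44% for TSDP, and that of Ube2c 1.23% to 1.65% for Control and 1.67% to 1.89% for TSDP. These shares were looked at after the levels and were not tested.

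**Figure D3:**
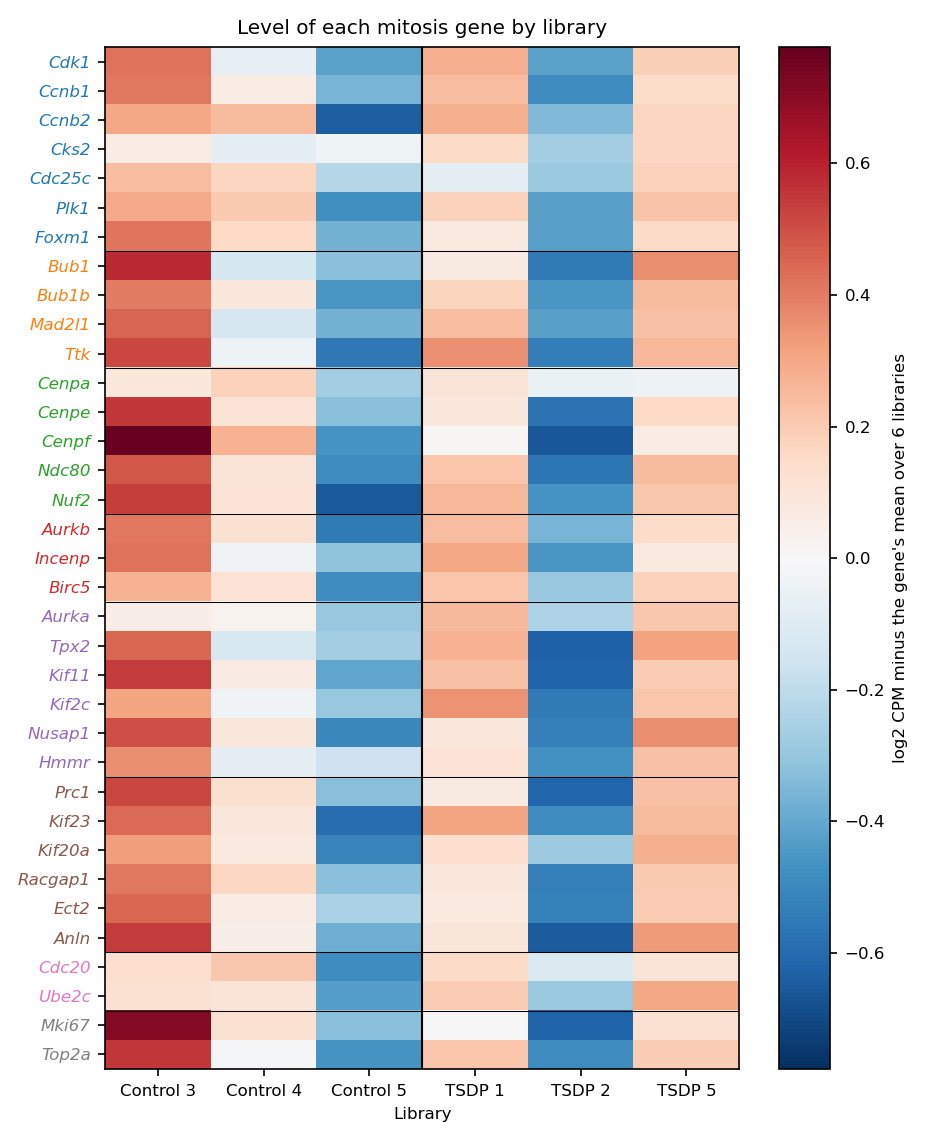
Log2 CPM of each gene minus its own mean over the 6 libraries, with libraries in columns and genes in rows grouped and coloured by role. The columns of Control 3 (high) and of Control 5 and TSDP 2 (low) stand out for nearly every row, and the line between the groups does not.

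Other genes of mitosis, taken from function lists of 118 genes, leaned the same way. Of these 118, all tested, 96 had negative fold changes and 22 positive, with a median of -0.13. Without Control 3, 47 were negative, with a median of 0.031, and without TSDP 2, 56, with 0.0085. The negative values numbered 105 with library totals alone and 106 with upper-quartile factors. They numbered 18 with the mean level of the hepatocyte markers as a covariate and 25 with that of the T cell markers. Both covariates ran higher in TSDP and cannot be separated from the treatment. None of the 118 passed the adjusted threshold with edgeR or limma-voom. DESeq2 called 1 (Wee1, lower in TSDP), against 3.4% of the genes to which it gave an adjusted p. At an unadjusted p under 0.05, edgeR gave 0 higher and 2 lower, Wee1 and Numa1. The shares over all tested genes were 8.6% higher and 4.75% lower. The groups did not overlap for 1 gene higher and 5 lower in TSDP, against 21.8% of all tested genes in either direction. Wee1, the kinase that restrains CDK1 before mitosis, had the smallest p of the 118 and groups that did not overlap, at 57.4, 50.7 and 36.1 in the Control tumours and 26.6, 22.1 and 32.1 CPM in the TSDP tumours. Its log2 fold change was -0.83 ± 0.22 (SE, unadjusted p = 0.00764 and adjusted p = 0.326, edgeR). Numa1, which focuses spindle poles, stood at 355, 292 and 339 in the Control tumours and 257, 187 and 272 CPM in the TSDP tumours (-0.46). Ccna2, the cyclin that spans S and G2 phases, stood at 149, 111 and 75.4 in the Control tumours and 120.1, 82.7 and 122 CPM in the TSDP tumours, overlapping as the B-type cyclins did (-0.049).

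By list, the negative fold changes numbered 27 of 32 for other kinetochore genes (median -0.14), 16 of 21 for other checkpoint and anaphase-promoting complex genes (-0.090) and 18 of 21 for other spindle genes (-0.10). They were 15 of 21 for other entry kinases, cyclins and phosphatases (-0.13), 16 of 17 for condensin and cohesin (-0.18) and 4 of 6 for other cytokinesis genes (-0.15). The genes with the smallest p in the lists not yet named were Cenpc1 (-0.34), Anapc13 (0.38), Smc3 (-0.34) and Arhgap11a (-0.33). Control 3 was the highest tumour for 90 of the 118, and TSDP 2 or Control 5 the lowest for 106.

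Regulators of the programme showed no called difference either. Of 15 genes of the MuvB, MYB, DREAM and NF-Y list, 13 had negative fold changes and 0 passed at an unadjusted p under 0.05. Mybl2, which encodes B-MYB, stood at 17.0, 12.1 and 10.3 in the Control tumours and 15.6, 10.4 and 15.2 CPM in the TSDP tumours (0.065). Nfyb, an NF-Y subunit, had the smallest p of the list (0.29, unadjusted p = 0.0674, edgeR). Cdkn1a, the p21 inhibitor through which p53 shuts the programme down, stood at 72.7, 97.3 and 119 in the Control tumours and 137, 124 and 118 CPM in the TSDP tumours. Control 5 lay within the TSDP range, and the log2 fold change was 0.39 ± 0.19 (SE, edgeR adjusted p = 0.426). Cdkn1c had the smallest p among the 10 CDK inhibitor, RB1 and p53 genes but stayed at or below 3.21 CPM, with TSDP 2 far above the rest.

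DNA replication and G1/S genes were also highest in Control 3 and lowest in TSDP 2, with Control 5 next. The 26 genes summed to 2280.4, 1397 and 1294 CPM in Control 3, 4 and 5 and 1641, 1092 and 1622 CPM in TSDP 1, 2 and 5, with 22 negative fold changes, a median of -0.15 and 0 past an unadjusted p of 0.05. E2f1 stood at 34.9, 23.2 and 25.0 in the Control tumours and 24.5, 17.6 and 26.0 CPM in the TSDP tumours (-0.29). Pcna, the sliding clamp of replication, stood at 255, 149 and 168 in the Control tumours and 182, 120.1 and 189 CPM in the TSDP tumours (-0.22). The summed level of the 35 mitosis genes was 2.30, 2.76 and 2.20 times that of the replication genes in Control 3, 4 and 5, and 2.49, 2.36 and 2.63 times in TSDP 1, 2 and 5. The Control range of this ratio enclosed all TSDP values.

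The make-up of the tissue differed between the same tumours. The 13 hepatocyte markers summed to 106, 19969.9 and 3813 CPM in Control 3, 4 and 5 and 31533, 59632 and 19981 CPM in TSDP 1, 2 and 5. The tumour with the least hepatocyte RNA, Control 3, had the most mitosis RNA, and the one with the most, TSDP 2, had the least. Control 5 went against this order, with a hepatocyte level above that of Control 3 alone and a mitosis level above that of TSDP 2 alone. Control 4 went against it too, lying below TSDP 1 in hepatocyte level and also in mitosis level. Control 4 and TSDP 5 were nearly equal in hepatocyte level, and as a percent of counts Control 4 was slightly higher (2.03% against 1.97%). The inverse order thus held for Control 3 and TSDP 2, and between TSDP 1 and TSDP 5, but not for all of the tumours between the extremes. The 8 T cell markers, RNA of another cell type that can divide, summed to 26.8, 78.6 and 59.7 CPM in Control 3, 4 and 5 and 86.0, 91.0 and 78.3 CPM in TSDP 1, 2 and 5, again lowest in Control 3. Alb, the main hepatocyte product, ran from 62.7 CPM in Control 3 to 32438 CPM in TSDP 2. With the mean level of the hepatocyte markers as a covariate, 0 of the 35 fold changes were negative, with a median of 0.28. With that of the T cell markers 1 was, with a median of 0.25, and in both fits 0 passed. Both covariates ran higher in TSDP: all 13 hepatocyte and all 8 T cell markers had positive fold changes. With 6 tumours these fits cannot separate the covariate from the treatment. Relative to the summed keratins Krt8 and Krt18, a ratio formed after the values had been seen, the 35 genes stood at 5.58, 3.40 and 2.13 in Control and 3.59, 2.38 and 3.17 in TSDP. Both were listed as keratins of hepatocytes as well as tumour epithelium, so this ratio is not a level per tumour cell. The part of tissue make-up in the levels of the 35 was not otherwise tested, and the covariate fits cannot settle it.

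**Figure D4:**
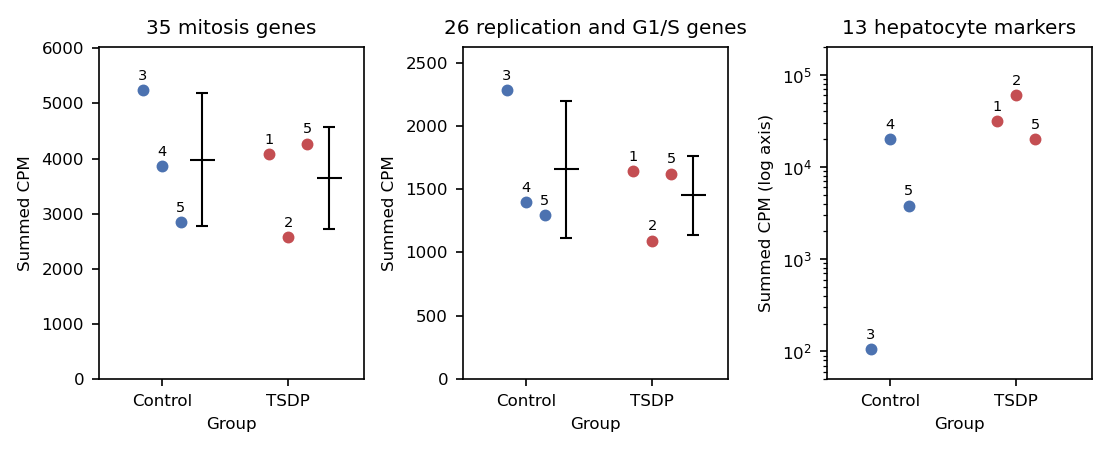
Summed CPM per library of the 35 mitosis genes, 26 replication and G1/S genes and 13 hepatocyte markers (log axis in the last panel), with points numbered by replicate and black bars giving mean ± SD (n = 3) where the axis is linear. Control 3 is highest in the first panels and lowest in the last.

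The direction of the small differences depended on single tumours. Without Control 3, 5 of the 35 fold changes were negative, with a median of 0.16, and without TSDP 2 also 5, with 0.14. Without Control 5, 33 were negative, with a median of -0.24, and on the CPM printed here the groups no longer overlapped for 2 genes, Foxm1 and Cenpf, lower in TSDP. With TMM factors computed anew from the 5 libraries left, they no longer overlapped for 5 of the 35, with Ccnb2, Cdc25c and Mki67 added, against 30.2% of all tested genes. Without TSDP 2 they no longer overlapped for 3 of the 35 with either set of factors, Cks2, Aurka and Ube2c, higher in TSDP, against 30.1% of all tested genes. Both counts are below the share over all genes. In none of these fits did a gene of the 35 pass. Mki67 had a log2 fold change of -0.063 without Control 3 and -0.59 without Control 5. For Cdk1 the corresponding values were 0.26 and -0.16.

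Among the 35, fold changes were lower for longer genes, in length classes chosen after the values had been seen. Of the 12 genes with 6 kb or more of exon, Cenpf, Mki67, Cenpe and Prc1 among them, 10 had negative fold changes, with a median of -0.14. Of the 6 with 1.5 to 3 kb, Aurka, Ube2c and Cdc20 among them, 2 did, with a median of 0.047. Over all tested genes the median was -0.11 for 4576 genes of 6 kb or more and 0.061 for 4073 genes of 1.5 to 3 kb. It was -0.0064 for the 2569 genes under 1.5 kb, so the medians did not fall steadily with length. In Control 3 the median gene of 6 kb or more stood 0.14 log2 units above its mean over the libraries, and that of 1.5 to 3 kb stood at -0.091. Without Control 3 the medians of the mitosis genes were 0.12 and 0.18 in these classes, and those of all genes -0.065 and 0.033. In the other classes the mitosis genes then had 0.068 (under 1.5 kb, 1 gene), 0.18 (3 to 4.5 kb) and 0.054 (4.5 to 6 kb). Their medians without Control 3 thus did not fall steadily with length. RNA integrity values were not analysed here, and the part of length or RNA quality in these differences was not tested.

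**Figure D5:**
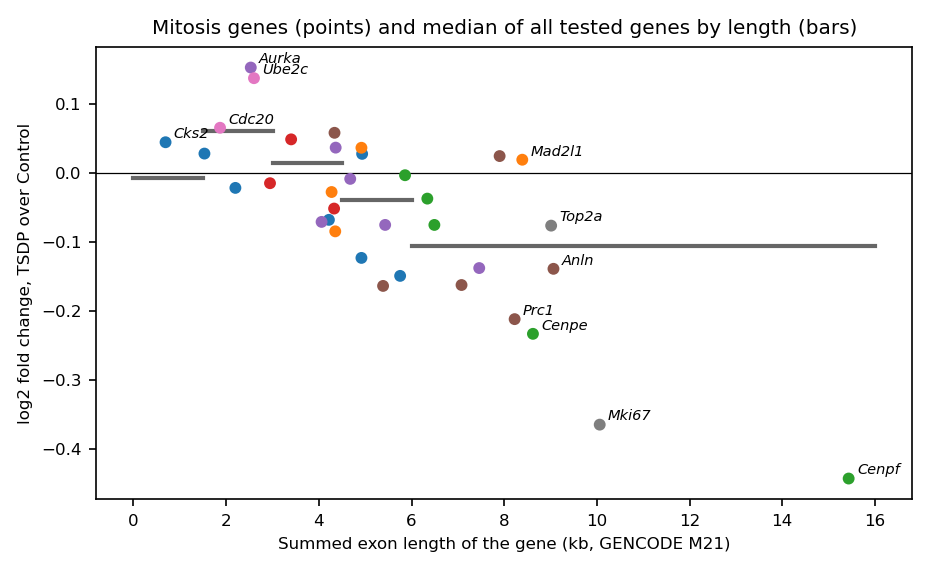
Log2 fold change of TSDP over Control for each of the 35 genes (points, coloured by role as in the plot of intervals) against summed exon length in kb, with horizontal bars giving the median of all tested genes in 5 length classes. The longest genes, Cenpf and Mki67, lie lowest, and the bar for genes of 6 kb or more lies at -0.11.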

How the data were processed

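RNA of 6 tumours was extracted with an RNeasy kit and libraries were made with the KAPA mRNA HyperPrep chemistry, per the labels' protocols. The submitters' processing notes name HISAT2 2.1.0 and featureCounts 2.0.0, beside Trimmomatic 0.38, CASAVA, FastQC and MultiQC. For the build, the annotation release and strandedness nothing is given in the sources used here, and reads of overlapping genes, antisense ones included, may be mixed. In the deposited count table the values are whole, unnormalized read counts per gene. Its 55536 identifiers are the same as those of GENCODE M21, which supplied exon lengths. Gene symbols came from the deposited table of normalized signal, whose values are the authors' counts divided by 1 constant per library and were not tested.

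Groups came from sample titles, which alone show the replicates to be separate, and the p-values therefore reflect only how far these samples spread, which may be technical. No library was a duplicate of another (lowest chi-square per gene 47.7). edgeR 4.0.16 (R 4.3.3) was run with TMM factors, filterByExpr (minimum count 10), legacy quasi-likelihood and Benjamini-Hochberg adjustment over 17423 genes. SE is the absolute log2 fold change over the root of F, and intervals use the fit's degrees of freedom. No p was computed for the 35 genes as a set. DESeq2 1.42.0, limma 3.58.1 (voom), other scalings, filters, covariates and leaving out each library were alternatives. Fits were tested on simulated data.

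Named genes were the 35, the gene with the smallest p of each pathway list, and a few markers and regulators; 1 result is not reported here. The genes and lists were chosen with earlier results of these data known. The 4 genes Ccna2, Mybl2, E2f1 and Pcna were named in every case, as was Cdkn1a. Ccnb1 and Ccnb2 have annotated pseudogenes that could share reads. Promoter windows for Cdc25c, Foxm1, Aurkb, Incenp, Tpx2 and Kif20a were not used here.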

Additional observations from a re-analysis of the deposited data

How the results depend on the processing

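Under 17 alternatives 0 of the 35 mitosis genes passed the adjusted threshold, and the lowest adjusted p of any of them was 0.481, with upper-quartile factors. The count of genes called over the whole table was 621 with DESeq2, 1 without the filter on low counts and 0 in the other fits. Negative fold changes among the 35 numbered 23 with the planned method, 0 with the hepatocyte covariate, 1 with the T cell covariate, 31 without scaling factors, 33 with upper-quartile factors and 5 to 33 when 1 library was left out. Genes whose groups did not overlap numbered 0 under each scaling and 0 to 5 of 35 when 1 library was left out and the factors were computed anew, against 26.0% to 41.9% of all tested genes. The median fold change of the 35 stayed between -0.24 and 0.28. Both covariates ran higher in TSDP, so the fits with them cannot separate the covariate from the treatment. Aurka alone kept its sign in all 17, and the sign changed at least once for the other 34, none of which was called in any fit; the cause was not tested. With library totals alone, log2 fold changes turned negative for Cdk1 (-0.026), Ccnb2 (-0.029), Cks2 (-0.016), Mad2l1 (-0.034), Ttk (-0.014), Birc5 (-0.0085), Kif2c (-0.017) and Kif23 (-0.028). With upper-quartile factors, log2 fold changes turned negative for Cdk1 (-0.035), Ccnb2 (-0.036), Cks2 (-0.023), Mad2l1 (-0.043), Ttk (-0.025), Birc5 (-0.016), Kif2c (-0.027), Kif23 (-0.038), Kif20a (-0.0052) and Cdc20 (-0.00058). With limma-voom, log2 fold changes turned positive for Cenpa (0.0095), Nuf2 (0.013) and Aurkb (0.024). With the hepatocyte covariate, log2 fold changes turned positive for Ccnb1 (0.27), Cdc25c (0.017), Plk1 (0.18), Foxm1 (0.13), Bub1 (0.49), Bub1b (0.30), Cenpa (0.0015), Cenpe (0.17), Cenpf (0.034), Ndc80 (0.31), Nuf2 (0.39), Aurkb (0.30), Incenp (0.33), Tpx2 (0.46), Kif11 (0.30), Nusap1 (0.34), Hmmr (0.28), Prc1 (0.17), Racgap1 (0.12), Ect2 (0.19), Anln (0.32), Mki67 (0.14) and Top2a (0.41). With the T cell covariate, log2 fold changes turned positive for Ccnb1 (0.23), Cdc25c (0.0028), Plk1 (0.16), Foxm1 (0.11), Bub1 (0.42), Bub1b (0.27), Cenpa (0.0077), Cenpe (0.12), Ndc80 (0.27), Nuf2 (0.35), Aurkb (0.27), Incenp (0.28), Tpx2 (0.39), Kif11 (0.25), Nusap1 (0.30), Hmmr (0.23), Prc1 (0.13), Racgap1 (0.086), Ect2 (0.15), Anln (0.26), Mki67 (0.090) and Top2a (0.36). When 1 library was left out, the log2 fold changes whose sign changed ran as follows: Cdk1 from -0.16 to 0.26, Ccnb1 from -0.26 to 0.12, Ccnb2 from -0.23 to 0.19, Cks2 from -0.030 to 0.16, Plk1 from -0.24 to 0.15, Foxm1 from -0.35 to 0.022, Bub1 from -0.30 to 0.22, Bub1b from -0.24 to 0.17, Mad2l1 from -0.15 to 0.27, Ttk from -0.20 to 0.33, Cenpa from -0.14 to 0.088, Ndc80 from -0.30 to 0.16, Nuf2 from -0.31 to 0.25, Aurkb from -0.25 to 0.19, Incenp from -0.22 to 0.15, Birc5 from -0.16 to 0.19, Tpx2 from -0.17 to 0.23, Kif11 from -0.35 to 0.12, Kif2c from -0.13 to 0.26, Nusap1 from -0.30 to 0.18, Hmmr from -0.22 to 0.10, Prc1 from -0.41 to 0.0026, Kif23 from -0.22 to 0.26, Kif20a from -0.16 to 0.23, Racgap1 from -0.35 to 0.022, Ect2 from -0.33 to 0.021, Anln from -0.35 to 0.11, Cdc20 from -0.14 to 0.19, Ube2c from -0.036 to 0.29 and Top2a from -0.30 to 0.21. For TTTGAA or TTCGAA, the count of promoter windows was 22 of 29 in full, 9 in the 150 bases before the start and 20 within 50 bases of it. No paired analysis was possible because the groups share only replicate number 5. With 3 tumours a group, the precision is set by the spread between tumours (biological coefficient of variation 34.9%) and not by depth.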
